A study of Mus musculus with 6 samples.

Results

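The comparison set 2 pools of mouse blastocysts that carried an antibody with no target in them against 2 pools that carried none. All 4 arrays were chosen by their labels, as the anti-GFP and the mCherry-Trim21 mRNA pools among the 6 arrays of the series, and no measured value entered the choice. The embryos were zygotes of a B6C3F1 x CD1 mating, injected into the ooplasm at the mid-pronuclear stage and taken 72 h later, after 96 h in culture (4 dpc, Theiler stage 5, cavity formation labelled normal). Every embryo received mCherry-Trim21 mRNA and dextran beads, and the anti-GFP embryos received the antibody as well. Each pool held 10 embryos, each group had 2 pools (replicates a and b), and each pool was hybridized to 1 array. The labels give 72 h after injection whereas the methods speak of day 4 after microinjection, and neither says that the pools of a group came from separate cultures, so p-values measure only the spread between these pools. There was no pool of uninjected embryos among the arrays analysed here, so what the mRNA or the injection itself changed cannot be read from this comparison.

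TRIM21 is a cytosolic ubiquitin ligase that grips the constant part of an antibody and hands the antibody, with whatever it holds, to the proteasome. In many cell types antibody-bound particles that reach TRIM21 also start an antiviral and inflammatory response. GFP is a jellyfish protein that wildtype embryos do not make, so that anti-GFP controls for the antibody itself. The blastocyst consists of the trophectoderm, an epithelium that pumps fluid into the cavity, and of the inner cell mass, which sorts into epiblast and primitive endoderm.

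The values are log2 intensities, in which a difference of 1 is a doubling of the linear intensity. Probe sets bind their targets with different strength, so a level shows whether a gene was above background and in which band of intensity it lay, not how many transcripts there were. Of 65955 rows used, 30637 carried 1 gene symbol and gave 30175 genes. Background was taken from 1527 olfactory and vomeronasal receptor genes, which serve the nose and are silent in most other tissues. The 95th percentile of these genes was 4.49 and 4.43 in mCherry-Trim21 mRNA replicates a and b and 4.44 and 4.57 in anti-GFP replicates a and b, and is called the silent level below. The median over all genes was between 4.62 and 4.67 on the 4 arrays.

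Of 28648 genes other than the receptors, 14789 (51.6%) lay above the silent level on all 4 arrays, 11125 lay at or below it on all 4 and 2734 on some. Of the 17670 protein-coding genes among them 10213 were above it everywhere. Most of the genes above it were dim: 4666 had a mean under 6, 4171 a mean from 6 to 8, 2683 from 8 to 10, 1405 from 10 to 12, 874 from 12 to 14, 541 from 14 to 16 and 449 of 16 or more. Long noncoding RNAs were above the silent level in 538 of 3165 cases, microRNA genes in 209 of 597 and small nucleolar RNAs in 371 of 955.

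The highest mean was that of Hspa8, a constitutive chaperone, with 19.27 and 19.44 in the mCherry-Trim21 mRNA pools and 19.46 and 19.27 in the anti-GFP pools. Dppa5a, a gene of pluripotent cells, had 19.08 and 19.18 against 19.19 and 19.05, and Rn7sk, the RNA that holds the elongation factor P-TEFb inactive, 19.06 and 19.13 against 19.04 and 18.92. Only 3 of the 25 brightest genes are protein-coding in the RefSeq annotation, namely Hspa8, Dppa5a and Rpl41, a protein of the large ribosomal subunit. Another 19 are annotated as pseudogenes, such as Ubb-ps, Rpl30-ps10 and Rpl35a-ps6, whose sequence is close to that of an expressed parent gene, so their intensity and that of the parent may not be separable.

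The labelled tissue was checked against markers of the blastocyst and of other cells. Of 23 trophectoderm genes measured 19 were above the silent level on all 4 arrays. Cdx2, the homeobox regulator of this lineage, had 12.07 and 12.08 in the mCherry-Trim21 mRNA pools and 12.08 and 11.68 in the anti-GFP pools. Krt18, a keratin of the epithelium, had 17.50 and 17.34 against 17.37 and 17.60. The T-box factor Eomes was at 9.97 and 9.81 against 9.80 and 9.97. Hand1, Elf5, Dlx3 and Ets2, of which Hand1 and Elf5 belong to later trophoblast, stayed at or below the silent level on every array.

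For the cavity and its seal, 22 of 24 genes were above the silent level on all arrays. Aqp3, a water and glycerol channel, had 14.33 and 14.77 against 14.88 and 13.78, and Cldn4, a claudin of the tight junction, 15.13 and 14.84 against 14.99 and 14.19. Cdh1, the adhesion protein E-cadherin, had 13.64 and 13.71 against 13.88 and 13.15. Anti-GFP replicate b was the lowest of the 4 arrays in 15 of the 24 genes, these 3 included, and the highest in 4, Atp1b1, Atp1b3, Cldn7 and Pkp2. How many of all genes were lowest in this pool is not given here, so the count is not read as particular to these genes. The same array had the highest silent level, 4.57, and the fewest genes above it, 15669 beside 16334 to 16393 on the others. That pool also had the highest value of Tspan8, a tetraspanin of the trophectoderm, with 11.75 beside 10.87, 10.47 and 9.93.

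Epiblast and pluripotency genes were above the silent level in 22 of 25 cases. Nanog had 16.29 and 16.63 against 16.55 and 16.50, Pou5f1, which encodes OCT4, 12.56 and 12.64 against 12.61 and 12.46, and Dppa3, a maternal and germline gene, 17.35 and 17.40 against 17.36 and 17.29. The primitive endoderm list was split, with 16 of 22 genes above the silent level. Gata6, an early factor of this lineage, had 12.76 and 12.82 against 13.10 and 12.39, and the endocytic receptor Lrp2 14.62 and 14.83 against 14.99 and 14.55. Gata4, Sox17, Sox7 and Foxa2, which act later or in more mature endoderm, were at or below the silent level on all 4 arrays. In pools of whole embryos fewer cells of a type and less RNA per cell cannot be told apart.

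Markers of cells that could have come along with the embryos were dim. Of 13 cumulus cell genes 10 were at or below the silent level on all arrays, among them Ptx3, Tnfaip6, Amh and Fshr, while Has2 and Amhr2 were above it. Of 12 fibroblast and blood genes 6 were at or below it everywhere, with the pan-leukocyte gene Ptprc between 3.79 and 3.88. Cd68, a lysosomal protein of macrophages and other cells, was the exception with 9.00 and 8.44 against 8.19 and 7.27, and Pecam1, which pluripotent cells also carry, had 7.33 and 7.68 against 7.61 and 7.40.

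**Figure D1:**
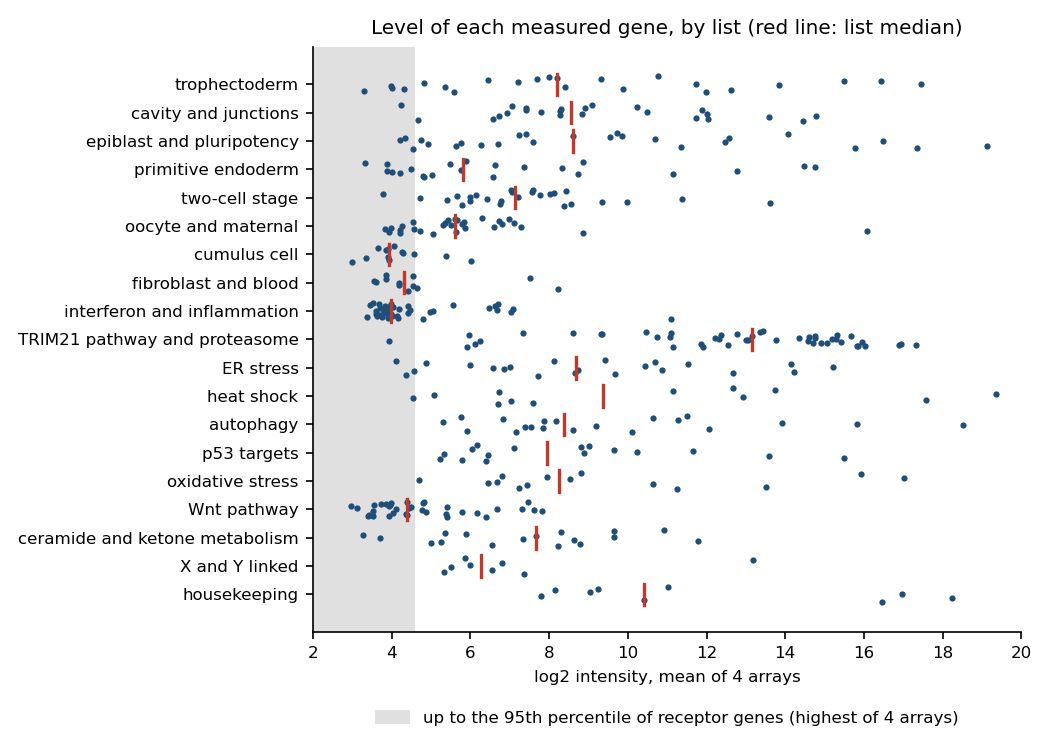
Mean log2 intensity over the 4 arrays (horizontal axis) of each measured gene of 19 lists (rows); red lines mark list medians and the grey band reaches to the highest silent level of the 4 arrays, 4.57. Proteasome genes sit mostly above 10, and interferon and cumulus cell genes mostly inside the band.

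The main question was what an antibody without a target adds. With limma, which moderates the spread of each gene over all genes, 0 of 30175 genes (0%) differed between the groups at a Benjamini-Hochberg adjusted p under 0.05, and the lowest adjusted p was 0.996. At an unadjusted p under 0.05 there were 1041 genes, 651 higher with anti-GFP (2.16% of all genes) and 390 lower (1.29%), where the threshold alone gives 1509. At an unadjusted p under 0.01 there were 134 genes (0.444%), 77 of them higher, where the threshold alone gives 302. These counts depended on single libraries. Without mCherry-Trim21 mRNA replicate a, 601 genes were under 0.05, 270 of them higher and 230 of them among the 1041. Without anti-GFP replicate a there were 2647, 531 of them among the 1041. On simulated arrays with 2 pools per group the same fit called 2 of 67 genes given a log2 change of 1. It called 57 of 67 given 2 and 62 of 66 given 4. Each simulated gene was drawn independently, without the differences that many genes share between the real pools. The shares called may therefore not hold for the real arrays, where Trim21 differed by 2.08 and was not called. Even in this simpler setting a doubling was rarely called. For a single gene an exact permutation test of 2 arrays against 2 cannot give a two-sided p below 0.333.

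The typical gene differed between the group means by 0.11 on the log2 scale (median of the absolute difference), with a median signed difference of 0.02. Trim21 itself, the injected sequence, differed most among the genes that passed an unadjusted p under 0.01. It had 9.05 and 7.56 in the mCherry-Trim21 mRNA pools and 10.16 and 10.60 in the anti-GFP pools. Both anti-GFP pools lay above both others, and the mCherry-Trim21 mRNA pools lay 1.49 apart. The difference was 2.08 (standard error 0.50, limma adjusted p = 0.996), with a range of 1.33 to 2.82 when each array was left out in turn. The probes cannot tell the injected mRNA from the embryo's own transcript. Trim21 was the only gene whose group means were 2 or more apart while the pools of each group were less than 2 apart, out of 33 genes with such a difference between the means.

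By the rule for named genes, 67 genes were higher and 46 lower with anti-GFP at an unadjusted limma p under 0.01, with groups that did not overlap and both arrays of the brighter group above the silent level. None of them passed after adjustment, and groups that do not overlap were found in 28.8% of all genes. Predicted genes made up 30 of the 67 and 14 of the 46, beside 32.0% of all genes, and small nucleolar RNAs 4 of the 67 and 9 of the 46, beside 3.16% of all genes.

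Noncoding RNAs were among the largest differences in both directions. Mature sequences are shown for the microRNA genes with the largest differences among those past an unadjusted limma p of 0.01, with the seed, bases 2 to 8, in capitals, since this is the stretch that pairs with targets. miR-30c-5p is added because it has the seed of miR-30e-5p and lies beside it on chromosome 4. They are from RefSeq (GRCm38.p6), with miR-340-5p at chr11:50069720-50069741 (plus strand), miR-30e-5p at chr4:120772660-120772681 (minus), miR-30c-5p at chr4:120769584-120769606 (minus), miR-378c at chr14:46954905-46954925 (minus) and miR-1983 at chr13:21896930-21896950 (minus).
mmu-miR-340-5p: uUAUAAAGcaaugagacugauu
mmu-miR-30e-5p: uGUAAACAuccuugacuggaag
mmu-miR-30c-5p: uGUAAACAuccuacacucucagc
mmu-miR-378c: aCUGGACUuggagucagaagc
mmu-miR-1983: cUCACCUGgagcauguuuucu

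Of the 597 microRNA genes measured, 491 matched a RefSeq entry. The array rows carry the name of the microRNA gene, and the precursor and the mature form cannot be told apart in them. Mir340 had 3.94 and 3.77 in the mCherry-Trim21 mRNA pools, under the silent level, and 5.52 and 5.84 in the anti-GFP pools, above it. It was at least 2.33-fold brighter with anti-GFP (the dim group counted at the silent level; measured means 3.86 and 5.68, limma adjusted p = 0.996). Mir30e had 4.52 and 4.06 against 5.38 and 5.68, a difference of 1.24 (standard error 0.21). The value of 4.06 lay under the silent level of its array, so the difference rests partly on background. In the RefSeq table used here the seed of miR-30e-5p is shared by miR-30a-5p, miR-30c-5p and miR-384-5p, and these genes had other values. Mir30a had 3.50 and 3.91 against 3.49 and 4.47. Mir384 stayed between 3.88 and 4.01, and both were under the silent level on every array. Mir30c-1 had 7.23 and 6.71 against 6.43 and 6.74. Only anti-GFP replicate b was above the silent level for Mir30c-2, at 5.29 beside 4.09, 3.91 and 3.77. Of the same family by name, Mir30b differed by −0.01 and Mir30d by −0.35. Their absence from the matches in that table is not read as a different seed.

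At an unadjusted p under 0.05, 22 of the 597 microRNA genes were lower and 20 higher with anti-GFP, beside 1.29% and 2.16% of all genes. MicroRNA rows also varied more between pools. Their median absolute difference was 0.23 in the mCherry-Trim21 mRNA group and 0.26 in the anti-GFP group, beside 0.15 and 0.18 over all genes. No result about microRNAs is read from the counts. The lower microRNA genes that met the named-gene rule, with p under 0.01, were Mir378c, Mir1983, Mir3473c and Mir5125. Mir378c had 4.85 and 5.13 against 3.96 and 3.75, so that anti-GFP lay under the silent level, and was at least 1.40-fold dimmer. Mir1983 had 9.95 and 10.29 against 9.17 and 8.89, a difference of −1.09 (standard error 0.18). Mir3473c and Mir5125 differed by −0.55 and −0.48.

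Small structural RNAs differed in both directions. Snord90, a box C/D small nucleolar RNA, which class guides 2'-O-methylation, had 5.05 and 5.81 against 6.78 and 7.54. Snord15a had 4.86 and 4.19, the latter under the silent level, against 5.46 and 5.93. Rny1, the Y1 RNA that the Ro60 protein binds, had 11.76 and 11.72 against 10.93 and 10.33, a difference of −1.11 (standard error 0.22). Snora30, an H/ACA small nucleolar RNA, which class guides pseudouridylation, had 10.59 and 10.84 against 9.73 and 9.75. All 4 had a limma adjusted p of 0.996, and the rule that named them requires groups that do not overlap.

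Among protein-coding genes on the higher side, Nt5dc2, a member of the 5'-nucleotidase domain family, had 6.03 and 6.06 against 7.41 and 7.15, a difference of 1.24 (standard error 0.14). Med10, a subunit of the Mediator complex that links transcription factors to RNA polymerase II, was the brightest of the 12 named, with 12.84 and 13.03 against 13.73 and 13.94 and a difference of 0.90. Defa39, annotated as an alpha-defensin, had 7.02 and 6.96 against 7.83 and 8.76. Rabl2, a small GTPase of the cilium, had 8.40 and 8.17 against 9.45 and 9.11, and Ina, the neuronal filament protein internexin alpha, 5.64 and 5.56 against 6.40 and 6.67. Fam151b and Atp6ap1l were higher by 0.91 and 0.90.

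On the lower side Dkk1, a secreted inhibitor of Wnt signalling, had 6.92 and 6.98 in the mCherry-Trim21 mRNA pools and 5.71 and 5.93 in the anti-GFP pools. The pools of each group lay within 0.22 of each other and the groups 1.13 apart, at −1.13 (standard error 0.14, limma adjusted p = 0.996; −1.24 to −1.02 when each array was left out). The other inhibitors Dkk2, Dkk3, Dkk4, Frzb and Wif1 were at or below the silent level on all arrays. Axin2, a feedback target of the pathway, had 5.40 and 5.48 against 5.49 and 5.25. Of 35 Wnt pathway genes measured 0 were higher and 1, Dkk1, was lower at an unadjusted p under 0.05. The study lists Dkk1 and Mir3079 as past its larger fold-change threshold with the GFP antibody. Here Dkk1 was 2.19-fold dimmer with anti-GFP, short of that threshold. Mir3079 had 3.23 and 3.21 against 3.17 and 3.39, under the silent level on all arrays.

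Oxct2b, a ketone-body transferase known from testis, had 6.67 and 6.09 against 5.51 and 5.24, and Cers3, a ceramide synthase for very long chains, 5.39 and 5.47 against 4.43 and 4.67. They were the 2 of 17 genes of ceramide and ketone metabolism that were lower at an unadjusted p under 0.05, with 0 higher. Of all genes 1.29% were lower at this threshold. The list was drawn up with earlier results of these data known, so the count is not read as a result about either pathway. Cers2, Cers4, Cers5 and Cers6, the other synthases measured, differed by 0.25, −0.07, 0.03 and 0.28. Prps2, which makes the sugar phosphate for nucleotides, had 7.31 and 7.79 against 6.72 and 6.59, and Cmtm5, a MARVEL-domain membrane protein, 7.32 and 7.50 against 6.58 and 6.25. Rbp2, a cellular retinol binding protein, differed by −0.79, and Trpd52l3 and Cyp17a1, an enzyme of steroid synthesis, lay under the silent level in both anti-GFP pools.

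**Figure D2:**
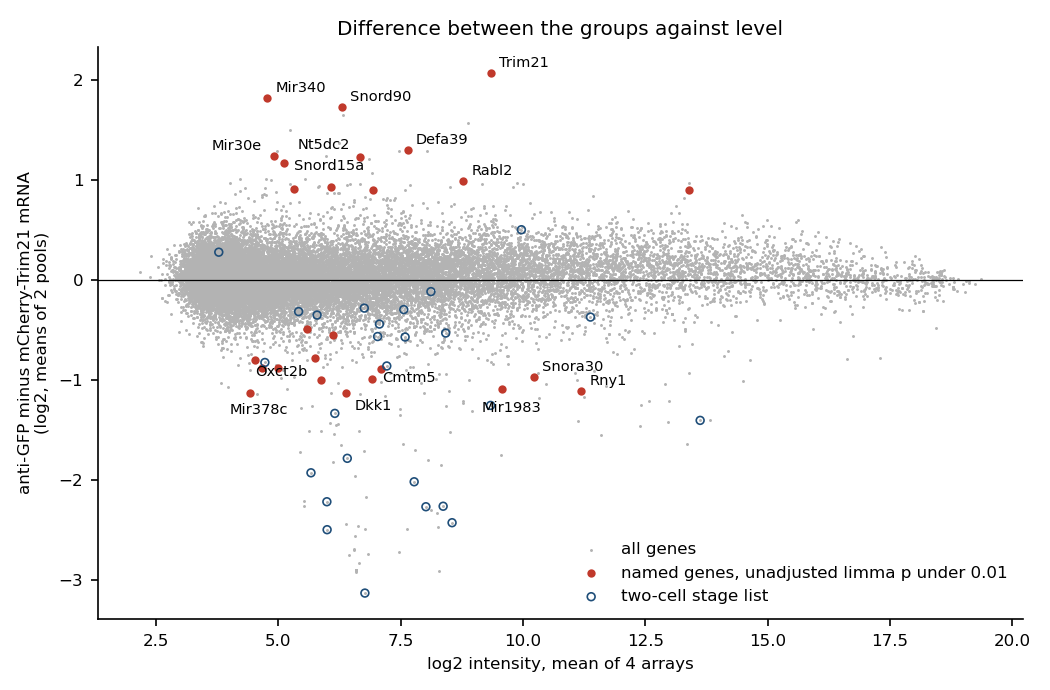
Difference of anti-GFP from mCherry-Trim21 mRNA (vertical axis, log2, means of 2 pools) against mean log2 intensity (horizontal axis) for 30175 genes; red points are the named genes and open circles the 2-cell stage list. Trim21 stands highest at 2.08, and the lowest point is Tcstv3 of the 2-cell stage list at −3.13, whose mCherry-Trim21 mRNA pools lay 6.97 apart.

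The lists were read against the share of all genes at the same threshold, 2.16% higher and 1.29% lower. Of 39 interferon and inflammation genes 0 were higher and 0 lower at an unadjusted p under 0.05, with a median difference of 0.005 where all genes had 0.02. Of these genes 25 were at or below the silent level on all arrays. Isg15, a ubiquitin-like protein induced by interferon, had 3.71 and 3.63 against 3.67 and 3.36, Ifit1, Mx1, Cxcl10, Tnf and Il1b were also under the silent level throughout, and so were the sensors Cgas and Ifih1. Bst2, a membrane protein that tethers viruses, was the brightest of the list, with 11.30 and 11.22 against 11.25 and 10.65. Oas1f, named in the study and outside this list, had 7.53 and 7.45 against 6.96 and 6.93, a difference of −0.55 (standard error 0.12, limma adjusted p = 0.996).

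The TRIM21 pathway and proteasome list was bright, with 46 of 47 genes above the silent level. At an unadjusted p under 0.05 it held 1 higher gene, Trim21, and 1 lower gene, the immunoproteasome subunit Psmb9, with 6.33 and 6.50 against 5.98 and 6.12. The median difference was 0.13 beside 0.02 for all genes, and no call rests on it. Of the conjugating enzymes that TRIM21 works with, Ube2n differed by 0.22 and Ube2w had 7.18 and 7.23 against 7.45 and 7.47, while Ube2v1 and Ube2v2, partners of Ube2n, differed by −0.24 and −0.08. Vcp, the segregase that unfolds ubiquitinated proteins, had 13.29 and 13.55 against 13.57 and 13.28. Of the other immunoproteasome subunits, Psmb8 was under the silent level and Psmb10 had 6.15 and 6.02 against 6.12 and 6.20.

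Stress programmes were measured in 5 lists. Of 22 endoplasmic reticulum stress genes 0 passed an unadjusted p under 0.05 in either direction. Ddit3, the transcription factor CHOP, had the largest difference among them, with 8.43 and 8.40 against 8.62 and 9.48. The difference of 0.63 had a 95% interval of −0.13 to 1.40, and most of it came from anti-GFP replicate b. The chaperone Hspa5 had 10.12 and 10.78 against 10.40 and 10.46, and the kinase Eif2ak3 6.83 and 6.84 against 6.78 and 6.94. Heat shock (12 genes), autophagy (20) and p53 target genes (16) had 0 genes past the threshold in either direction. Of 14 oxidative stress genes 1 was lower, the quinone reductase Nqo1 with 4.89 and 5.20 against 4.22 and 4.45, the latter under the silent level.

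The lineage lists held 0 to 2 genes in either direction at this threshold, too few to set their share against that of all genes. In the trophectoderm list 0 of 23 genes were past an unadjusted p of 0.05, with a median difference of −0.06, and Cdx2 differed by −0.20 with a 95% interval of −0.64 to 0.25. Of 24 cavity and junction genes 1 was higher, the aquaporin Aqp9 (6.43 and 6.25 against 6.85 and 6.78), and 2 were lower, Aqp8 and Jup, which encodes plakoglobin (7.60 and 7.80 against 7.34 and 6.88). Of 25 epiblast and pluripotency genes 1 was higher, the growth factor Gdf3 (6.35 and 6.66 against 6.91 and 6.89), and 1 lower, Sox2 (8.69 and 8.97 against 8.45 and 8.32, a difference of −0.44). Nanog differed by 0.06 with an interval of −0.35 to 0.48. Of 22 primitive endoderm genes 0 were higher and 1 was lower, the collagen chaperone Serpinh1, by −0.69. Tead4, which encodes the target of the series' other antibody, had 9.40 and 9.40 against 9.30 and 9.16.

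Oocyte and maternal genes held 2 higher and 0 lower of 29, the oocyte growth factor Bmp15 (4.89 and 4.59 against 5.54 and 5.18) and Padi6, a maternal lattice protein (5.19 and 5.14 against 5.66 and 5.41). Cumulus cell genes held 0 of 13 in either direction, and fibroblast and blood genes 1 lower of 12, Cd68, by −0.99. Of 9 housekeeping genes 1 was higher, the TATA-binding protein gene Tbp (8.91 and 9.18 against 9.43 and 9.48), and Hprt had 16.62 and 17.10 against 17.02 and 17.18.

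Between the pools of a group the differences were larger than between the groups. The median absolute difference was 0.15 between the mCherry-Trim21 mRNA pools and 0.18 between the anti-GFP pools. A group difference is between means of 2 arrays and therefore varies less than a difference between single arrays. A difference of 1 or more on the log2 scale was found in 361 genes between the mCherry-Trim21 mRNA pools (1.2% of all genes), in 446 between the anti-GFP pools (1.48%) and in 119 between the group means. A difference of 4 or more was found in 85, 30 and 0 genes. All 85 were higher in mCherry-Trim21 mRNA replicate b and all 30 in anti-GFP replicate a. These 30 genes were among the 85, with 18 predicted genes and 12 named ones: Zscan4a, Zscan4b, Zscan4c, Zscan4d, Zscan4e and Zscan4f, and Pramel31, Pramel39, Pramel40, Pramel43, Pramel46 and Pramel49. By the RefSeq annotation 11 of the 30 lie on chromosome 5, 6 on chromosome 4, 6 on chromosome 7, 3 on chromosome 12 and 1 on chromosome 10, and 3 were not placed. Of all 30175 genes, 1622 lie on chromosome 5, 1950 on chromosome 4, 2569 on chromosome 7, 1074 on chromosome 12 and 1299 on chromosome 10.

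Zscan4 genes encode zinc finger proteins that are switched on in the late 2-cell embryo and again, briefly, in a small share of embryonic stem cells, where they act on telomeres. Pramel genes, the Tcstv genes, Usp17l deubiquitinase genes and Tdpoz genes belong to multicopy families, members of which are active at the same stage. RefSeq promoter stretches, which run from upstream of the annotated start to a little past it, are shown for 2 Zscan4 genes and for Usp17lc, because they show how alike the copies are and that each holds the letters TATAAAA, which the capitals mark. They are from RefSeq (GRCm38.p6), all on the plus strand, Zscan4c at chr7:11005495-11005794, Zscan4f at chr7:11397665-11397964 and Usp17lc at chr7:103416446-103416745.
Zscan4c: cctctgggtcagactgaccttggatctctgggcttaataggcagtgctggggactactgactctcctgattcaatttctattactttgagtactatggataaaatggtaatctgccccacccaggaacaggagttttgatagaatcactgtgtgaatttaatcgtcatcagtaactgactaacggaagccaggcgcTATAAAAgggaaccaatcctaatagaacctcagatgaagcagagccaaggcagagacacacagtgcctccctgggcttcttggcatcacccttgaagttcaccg
Zscan4f: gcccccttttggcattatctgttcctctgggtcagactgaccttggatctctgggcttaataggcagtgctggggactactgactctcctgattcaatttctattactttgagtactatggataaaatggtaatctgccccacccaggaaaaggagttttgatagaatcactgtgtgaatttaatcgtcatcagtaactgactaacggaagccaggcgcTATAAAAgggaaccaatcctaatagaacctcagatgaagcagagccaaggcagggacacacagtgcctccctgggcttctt
Usp17lc: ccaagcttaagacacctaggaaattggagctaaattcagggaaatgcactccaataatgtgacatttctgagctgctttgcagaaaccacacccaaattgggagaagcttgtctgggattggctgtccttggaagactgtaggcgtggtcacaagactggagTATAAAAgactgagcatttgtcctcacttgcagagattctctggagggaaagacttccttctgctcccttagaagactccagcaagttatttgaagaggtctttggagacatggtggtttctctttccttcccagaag

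The Zscan4c and Zscan4f stretches were identical at 275 of 277 overlapping bases (99.3%), without gaps, and all 6 pairs among Zscan4b, Zscan4c, Zscan4d and Zscan4f at 95.3% to 99.3%. Of the 26 genes of the 2-cell stage list that were measured, 13 had a RefSeq promoter. TATAAAA, searched on both strands, was in the stretches of all 4 Zscan4 genes, in 3 of 4 Usp17l genes and in 3 of 37 Pramel genes. It was in 7 of the 19 stretches of the 2-cell stage list, measured or not, and in 5.48% of all 32851 stretches of this length. Hits in close copies are not independent of each other. A match is a description of the letters, not of a used site. With copies this close, the rows of the family may report the same transcripts, and a gene's own level is uncertain.

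Zscan4c had 3.02 in mCherry-Trim21 mRNA replicate a, 12.40 in replicate b, 10.60 in anti-GFP replicate a and 4.23 in replicate b. The values in the dim pools were under the silent level, so the pools differed by at least 7.91 within the mCherry-Trim21 mRNA group and by at least 6.03 within the anti-GFP group on the log2 scale. Zscan4f had 3.18, 12.57, 10.75 and 3.86 in the same order, and Zscan4d, which stayed above the silent level in every pool, 4.51, 12.86, 11.26 and 5.05. Every Zscan4 gene was therefore bright in 1 pool of each group, at 9.45 or more, and at 5.64 or less in the other. Their group means differed by −0.57 to −0.11, with a lowest unadjusted p of 0.865.

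Pramel40 followed the same pattern from a higher base, with 6.28, 14.91, 13.51 and 6.57. Pramel46 had 4.74, 14.04, 11.15 and 5.17. Of 34 Pramel genes measured, 11 were 1 or more brighter in mCherry-Trim21 mRNA replicate b, 10 in anti-GFP replicate a, and 10 in both. Over all 30175 genes the same counts were 289, 311 and 139. The family was not uniform: Pramel33 stayed between 16.13 and 16.44, Pramel5 between 14.90 and 15.22 and Pramel30 between 10.24 and 10.46. Pramel17 was bright only in mCherry-Trim21 mRNA replicate b, at 13.13 beside 10.54, 10.13 and 10.71.

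A further set was much brighter in mCherry-Trim21 mRNA replicate b than in anti-GFP replicate a. D13Ertd608e, a gene of the 2-cell stage list, had 5.38, 14.15, 8.54 and 6.13, Tcstv3 4.85, 11.82, 6.15 and 4.25, and Usp17lc 5.26, 12.31, 8.20 and 5.33. Tdpoz3, of a family with speckle-type TRAF and POZ domains, had 4.12, 10.48, 7.04 and 3.99. BC080696 had 5.35, 11.40, 8.63 and 4.84. In Tcstv3 the 2 pools of the mCherry-Trim21 mRNA group differed by 6.97 and those of the anti-GFP group by at least 1.58.

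Over the 26 measured genes of the 2-cell stage list, 22 differed by 1 or more between the mCherry-Trim21 mRNA pools and 21 between the anti-GFP pools, beside 1.2% and 1.48% of all genes. The median of b minus a was 6.34 in the mCherry-Trim21 mRNA group and −2.38 in the anti-GFP group. With dim pools counted at the silent level the medians were 6.14 over 25 genes and, as a minus b, 2.08 over 26 genes. In that count 21 genes were 1 or more brighter in mCherry-Trim21 mRNA replicate b and 18 in anti-GFP replicate a. Both signs held together in 24 of 26 genes, the exceptions being Tdpoz1 and Ddit4l, beside 6918 of all 30175 genes. Between the groups 0 of the 26 were higher and 0 lower at an unadjusted p under 0.05. The median group difference was −0.84, and it depended on which pools entered: leaving out the mCherry-Trim21 mRNA pool a gave −4.60 and leaving out pool b 1.01, whereas leaving out the anti-GFP pool a gave −3.04 and leaving out pool b −0.18.

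**Figure D3:**
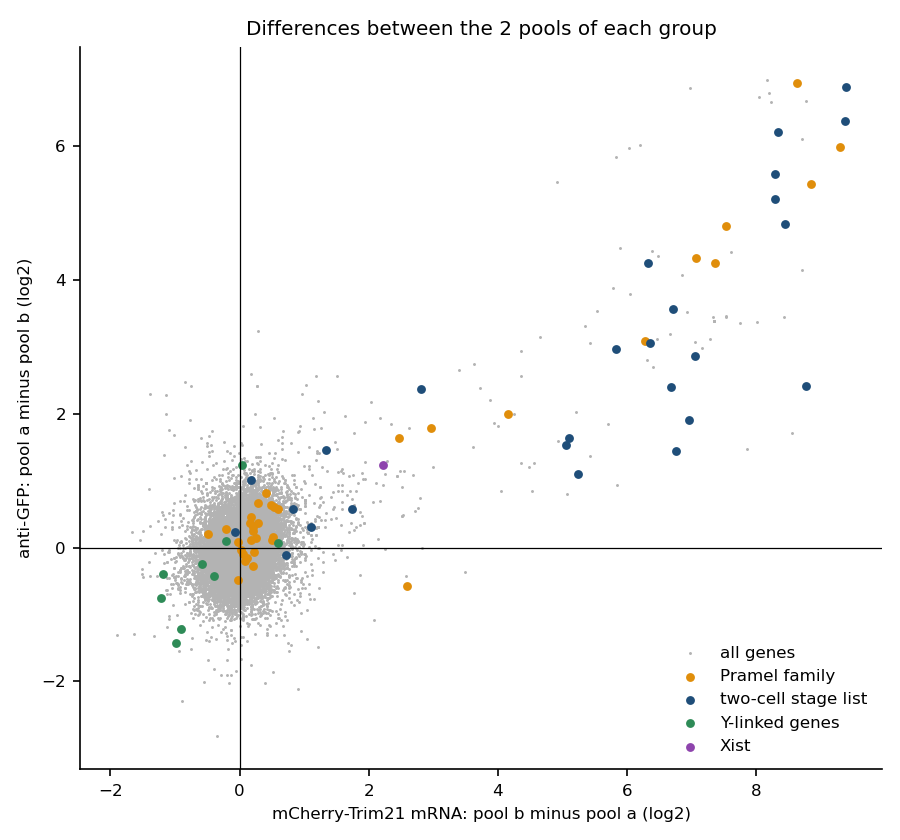
Difference between the mCherry-Trim21 mRNA pools (horizontal axis, b minus a, log2) and between the anti-GFP pools (vertical axis, a minus b, log2) for 30175 genes, with 4 gene groups in colour. The 2-cell stage and Pramel genes run far into the upper right corner, to 9.39 and 6.89 for Zscan4f, where Xist also lies. Left of 0 lie 7 of the 9 Y-linked genes, and the median of all genes on that axis is −0.02.

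By their medians the other stage and lineage lists differed little between the same pools. Single genes did differ: 4 of 29 oocyte and maternal genes were 1 or more apart between the anti-GFP pools, beside 1.48% of all genes. The cavity and junction list had a median of b minus a of 0.01 in the mCherry-Trim21 mRNA group and −0.16 in the anti-GFP group. In the order mCherry-Trim21 mRNA and anti-GFP, the median of b minus a was −0.03 and −0.01 for trophectoderm, 0.10 and −0.11 for epiblast and pluripotency, 0.08 and −0.13 for primitive endoderm, and 0.04 and −0.03 for oocyte and maternal genes, beside −0.02 and 0.04 for all genes. Obox genes, homeobox genes of oocytes and cleavage embryos, had 0 of 5 members 1 or more brighter in mCherry-Trim21 mRNA replicate b and 1 of 5, Obox5, in anti-GFP replicate a. Zfp352, a 2-cell stage gene, had 2.97, 4.31, 4.65 and 3.19 and was above the silent level in anti-GFP replicate a alone.

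Sex-linked genes also varied between the pools. Xist, the RNA that coats the inactive X chromosome of females, had 12.10 and 14.32 in the mCherry-Trim21 mRNA pools and 13.78 and 12.54 in the anti-GFP pools. The same pools that were bright for Zscan4 were bright for Xist. Eif2s3y, a Y-linked translation factor gene, had 7.57 and 6.35 against 7.38 and 8.14, Usp9y 6.37 and 5.19 against 5.99 and 6.39, and Zfy1 6.24 and 5.25 against 5.27 and 6.69. Of the 9 named Y-linked genes above the silent level on all arrays, 7 had their lowest value in mCherry-Trim21 mRNA replicate b, the pool with the highest Xist, and 6 were brighter in anti-GFP replicate b than in a. The exceptions to the first count were Sry (6.16 and 6.75 against 6.65 and 6.58) and Uba1y (5.01 and 5.05 against 6.43 and 5.20). The shares of all genes that went these ways are not given here. Over all genes the median of b minus a was −0.02 in the mCherry-Trim21 mRNA group and 0.04 in the anti-GFP group. Some Y-linked genes moved little, such as Sly at −0.21 and −0.10, so the counts alone are not read as particular to these genes. The make-up of the 10 embryos of a pool by sex is not given in the sources used here, and its part in other differences was not tested.

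**Figure D4:**
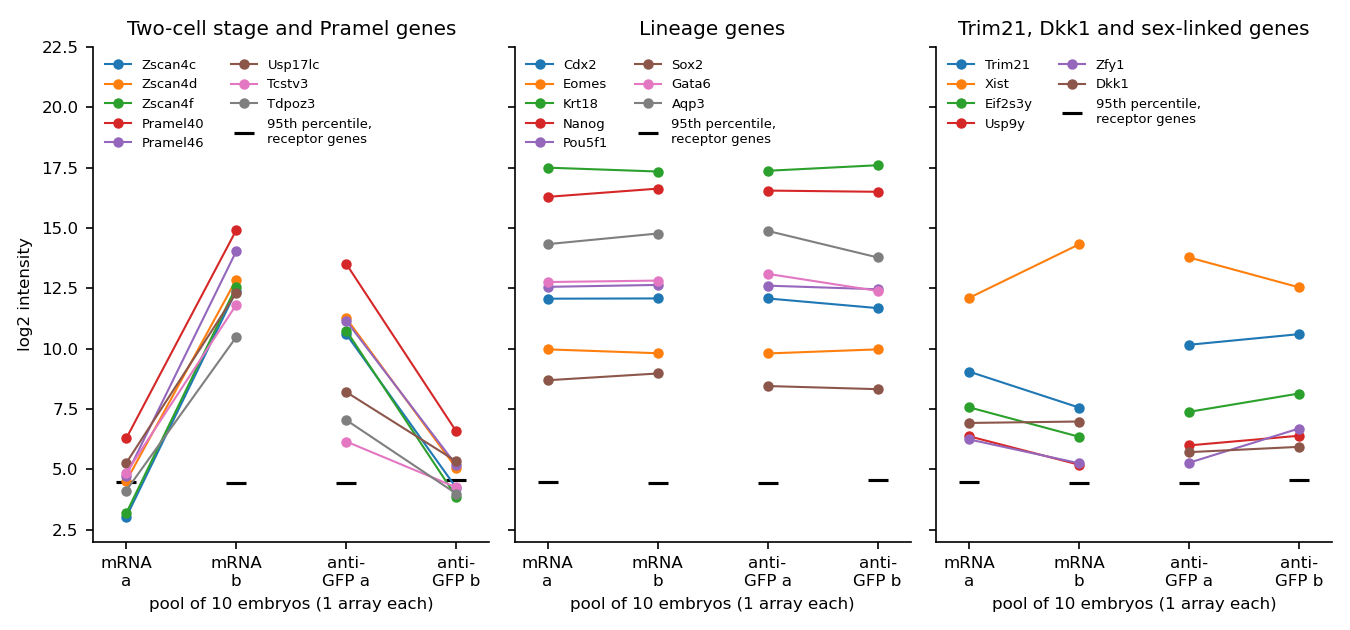
Log2 intensity (vertical axis) in each of the 4 pools (horizontal axis; lines join the 2 pools of a group) for 2-cell stage and Pramel genes, lineage genes, and Trim21, Dkk1 and sex-linked genes; black dashes mark the silent level. Zscan4c goes from 3.02 to 12.40 within a group, whereas Nanog stays between 16.29 and 16.63 over all pools and Trim21 is highest in both anti-GFP pools.

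Fewer and smaller differences ran the other way. In mCherry-Trim21 mRNA replicate a 72 genes were 1 or more brighter than in replicate b, and 0 were 2 or more brighter. They included Spinkl, a protease inhibitor-like gene, with 6.49 and 4.59, Pmis2, a sperm gene, with 7.95 and 6.44, and S100a3, a calcium-binding protein gene, with 7.94 and 6.44. In anti-GFP replicate b 135 genes were 1 or more brighter than in replicate a. They included Mid1, a ubiquitin ligase gene of the X chromosome, with 7.63 and 9.74, Cbl, a ubiquitin ligase for receptor tyrosine kinases, with 11.79 and 13.34, and the small nucleolar RNA Snord72 with 11.17 and 13.18. Snord42a was low in this pool alone, with 14.38 and 14.66 in the mCherry-Trim21 mRNA pools and 14.74 and 11.50 in the anti-GFP pools. The 62 ribosomal RNA genes measured had a median of b minus a of −0.62 in the anti-GFP group and 0.11 in the mCherry-Trim21 mRNA group. Over all genes these medians were 0.04 and −0.02. The median absolute differences of the ribosomal RNA genes were likewise 0.62 and 0.11. Whether their rows are separate measurements was not tested.

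Across all genes the arrays correlated at 0.986 to 0.995 (Pearson's r over 30175 genes, which are not independent). The arrays most alike were of different groups: mCherry-Trim21 mRNA replicate b and anti-GFP replicate a at 0.995, and replicate a of the former and b of the latter at 0.994, beside 0.988 within mCherry-Trim21 mRNA and 0.991 within anti-GFP. When the genes that differed by 1 or more within either group were left out, 29523 remained. The values were then 0.997 and 0.995 across the groups, in the same order, and 0.997 and 0.995 within them. This filter removes genes by their within-group difference, so it raises the values within the groups by itself. No conclusion is drawn from the change.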

How the data were processed

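RNA of 4 pools of 10 blastocysts was analysed, with the 2 anti-TEAD4 pools used only in 1 alternative. RNA had been extracted without DNase digestion, amplified with the WT Pico kit and hybridized to Affymetrix Mouse Transcriptome Arrays. The authors used robust multiarray averaging (background correction, normalization between arrays and 1 value per probe set) in the Affymetrix Expression Console (version not given in the sources used here) and deposited log2 intensities with 2 decimals. One of the 65956 rows, with a value above 100, was not used. Among the rows with 1 symbol, the brightest by its mean stood for the gene, and no pseudocount or filter was applied. Rows with several symbols (2176) or none (33142) named no gene. For arrays the number of arrays limits the precision.

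Groups were compared with limma 3.58.1 in R 4.3.3 (residual degrees of freedom 2, prior 3.012, prior SD 0.152) and p-values adjusted by Benjamini-Hochberg over 30175 genes. The steps were tested on simulated data. Tables and figures were made with Python 3.11.15, pandas 2.3.3, numpy 2.4.6 and matplotlib 3.10.9. A group or pool at or below the silent level was counted at that level and the fold given as a bound.

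The members, the 19 lists and the rules were chosen with earlier results of these data known. Named genes are those the study names, the 12 largest differences in each direction under the conditions given, the 15 largest between pools, the 25 brightest, up to 8 per list and the microRNA genes past the threshold. Predicted genes were counted, not named. Gene families by symbol (Pramel, Usp17l, Obox), Nqo1 beyond its list and genes that ran the other way between pools were chosen after their values were seen. The alternatives are all 6 arrays, the replicate letter as a block, leaving out each array, other scalings, filters and rows, and a t-test.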

Additional observations from a re-analysis of the deposited data

How the results depend on the processing

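The count of 0 genes past an adjusted p under 0.05 held in 14 limma alternatives, with 330 to 2647 genes at an unadjusted p under 0.05. A t-test with equal variances on linear intensities, a scale and an assumption chosen here, passed 10 genes and over all rows 18, and all of them had tied values within both groups. From 1041 genes at an unadjusted p under 0.05 the count moved to 330 with all 6 arrays in 1 model, 496 without dim genes, 2336 over all rows and 2598 by this t-test over all rows, and to between 601 and 2647 when each array was left out. From 134 genes under 0.01 it moved to 32, 65, 360 and 497 in the same order, to 231 by this t-test over genes, and to between 55 and 281 when each array was left out. With 1 pool left in a group, its spread was assumed to be that of the other group. The replicate letter as a block gave 668 genes under 0.05 and 60 under 0.01. Pools that share a letter did not vary together: the within-group differences correlated at −0.51 across genes, and −0.18 over the 29523 genes that differ by under 1. Whether the letters stand for shared cultures or array runs is not given in the sources used here. A crossed pairing, chosen after seeing the data, gave 0 adjusted calls, 1357 genes under 0.05 and 135 under 0.01.

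Genes above the silent level fell from 14789 to 12192 with the 99th percentile of the receptor genes, and the median difference between pools kept within 1.5 times in all 10 alternatives. Among 710 alternative values of 71 named genes 59, in 38 genes, changed sign, 56 of them when an array was left out. None was among the 26 genes named for the difference between the groups, but the rule that named these requires groups that do not overlap. Leaving out an array cannot then change the sign, so no stability is read from this. The leave-out ranges given for Trim21 and Dkk1 share this limit. In 1 of the 59 both values were larger than their standard errors: Snord42a differed by 0.22 without anti-GFP replicate b and by −3.02 without replicate a, in place of −1.40. Of 133 alternative list medians 13 moved by more than the spread between pools, all of them when an array was left out. Intensities near the silent level limit what could be seen of dim genes.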

Other observations

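Rows with no gene symbol held the pool pattern too. Of 33142 such rows 11 were 4 or more brighter on the log2 scale in both mCherry-Trim21 mRNA replicate b and anti-GFP replicate a than in the other pool of the group, and 0 were as much dimmer in both. They name no gene here and enter no comparison above.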
